A study of Arabidopsis thaliana with 6 samples.

Results

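The 51 genes described here were listed as higher in mrg1 mrg2 than in Col-0 and lie beside another gene of the same list. They were taken from the 528 nuclear genes of the authors' table of higher genes by their gene codes: each code differed by 10 or less from that of another higher gene on the same chromosome. Arabidopsis codes follow the order of genes along a chromosome, mostly in steps of 10, so the rule mostly picks direct neighbours. The 51 genes formed 25 clusters, of which 24 were pairs and 1 held 3 genes, and gave 26 neighbouring pairs. The members were thus selected on the authors' fold changes and adjusted p-values of mrg1 mrg2 against Col-0, so the difference between the genotypes was fixed for every member and is described here without a test.

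Plants were wild-type Arabidopsis thaliana of the Columbia-0 ecotype (Col-0) and the double mutant mrg1 mrg2 in the same ecotype, each with 3 libraries from 3 independent experiments. They were grown on soil at 22 °C in long days and harvested 8 h after lights-on at an age of 12 days, with no stress treatment, and the aerial parts were taken, labelled as leaves and stem. Both genotypes had a stratification of 3 days at 4 °C and light of 100 µmol per square metre and second. The labels do not name the mutant alleles or say how many plants went into a library. The MRG proteins carry a chromodomain that reads histone H3 methylated at lysine 36, a mark of transcribed genes, and they work with histone acetyltransferases. Neighbouring genes in plant genomes include tandem relatives, which arose by duplication in place and often keep similar proteins and regulation. They also include unrelated genes that share chromatin, a stretch between divergent starts, or the end of a transcription unit.

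The deposited tables hold 531 higher and 21 lower genes with raw read counts in all 6 libraries. From the ranks of the p-values, 22995 genes were inferred to have been tested, so the higher list makes up 2.31% of them. Genes outside these lists, MRG1 among them, have no values here, and neither do any of the 17 marker genes chosen for leaf, root, flower and seed, so the labelled tissue could not be checked. Listed reads are only a part of each library, and the full depth is unknown from the tables; the labels state a minimum of 40 M single-end reads of 50 bp. In whole aerial tissue, fewer cells of a type and less RNA per cell cannot be told apart. Counts below are normalized counts, that is, raw counts divided by size factors recovered from the authors' own fold changes, given for replicates 1, 2 and 3 in that order and as mean ± SD (n = 3 libraries a genotype). Of the targeted genes, MRG2 (AT1G02740) is in the table of lower genes, with 429.8, 392 and 397 counts in Col-0 and 197, 103 and 98.4 in mrg1 mrg2 (means 406 ± 20.5 and 133 ± 55.6), so it was lower in all 3 mutant libraries but not absent. By these counts the 3 mutant libraries lay above the 3 Col-0 libraries in all 51 members, against 99.8% of all listed higher genes. In the raw counts, 1 member, AT5G41740, overlapped between the genotypes.

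The members differed little in size of change from the rest of the list. In the authors' deposited table their log2 fold changes ran from 0.63 to 3.80 with a median of 1.07, beside 1.08 for the other 477 nuclear higher genes. By the same values, 29 members (56.9%) had a log2 fold change of at least 1, against 57.7% of the others. The median Col-0 mean was 110.0 normalized counts in members and 116 in the others, not scaled to gene length. Col-0 replicate 1 was the highest of the Col-0 libraries in 19 members (37.3%) and in 49.7% of the other higher genes. None of the 21 lower genes had a code within 10 of a member. By chromosome, members were 12 of the 167 nuclear higher genes on chromosome 1 and 4 of 78 on chromosome 2. They were 14 of 96 on chromosome 3, 14 of 72 on chromosome 4 and 7 of 115 on chromosome 5. Of the 26 pairs, 20 differed by exactly 10 in code and 6 by less. Just outside the rule were 4 further pairs: AT2G30420 and AT2G30432, 12 apart with authors' deposited table values of 0.65 and 1.76 (log2); AT2G13665 and AT2G13680, 15 apart with 0.60 and 0.83; AT4G37295 and AT4G37310, 15 apart with 2.30 and 0.66; and AT1G72200 and AT1G72220, 20 apart with 1.26 and 1.53.

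Tandem relatives made up a larger share of these pairs than of neighbouring genes in general. Both members coded for protein in 24 pairs, and in 11 of them (45.8%) the RefSeq proteins were at least 30% identical over at least 50% of the shorter one. The same held for 10.4% of 25732 pairs of annotated protein-coding genes with codes at most 10 apart. The annotated pairs were drawn from all protein-coding genes, tested by the authors or not, so the sets compared are unlike. No test of this difference was made. The relatives were NAC003 and NAC004, 4CLL2 and AT1G20490, UGT71C2 and UGT71C1, AT3G02610 and AT3G02620, LSU3 and LSU1, RHA1B and RHA1A, ERF6 and ERF1A, CRK23 and CRK24, AT4G37290 and AT4G37295, CYP71B11 and CYP71B12, and AT5G41740 and AT5G41750. The other 13 coding pairs were unrelated, and 2 pairs had a long noncoding RNA as a member.

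Orientation differed little from the genome. Of the 24 coding pairs, 13 (54.2%) lay on the same strand, 5 (20.8%) were divergent, with their starts facing each other, and 6 (25%) were convergent, with their ends facing. The annotated pairs gave 51.9%, 23.8% and 24.2%. The bases between the genes had a median of 1064.5 in the 24 pairs and 613 in the annotated pairs. The 5 divergent pairs were 2016 to 5041 bp apart. In 2 pairs another protein-coding gene came in between by position order: AT1G07130 for AT1G07128 and AT1G07135, and AT3G30725 for QQS and AT3G30730. The deposited description of AT1G07128 gives its locus as overlapping AT1G07130.

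**Figure D1:**
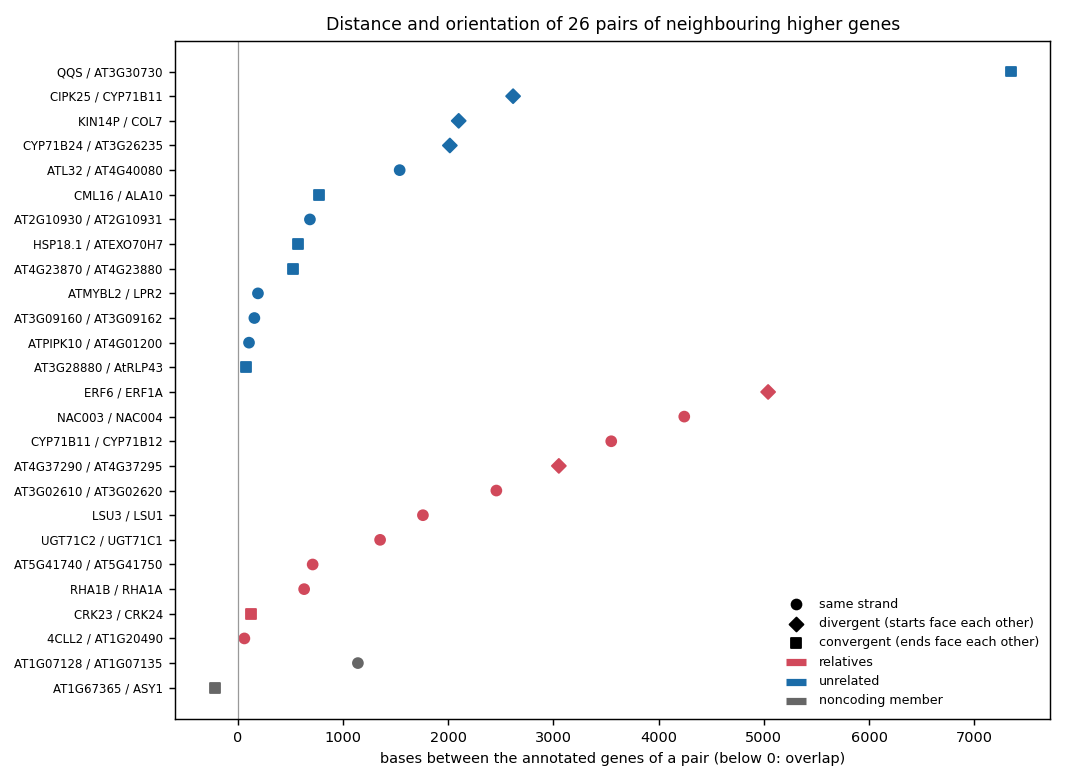
Bases between the annotated genes of each of the 26 pairs (x axis, negative for an overlap), by pair (y axis), with marker shape for orientation and colour for relatives, unrelated pairs and pairs with a noncoding member. Pairs range from an overlap of 214 bp (AT1G67365 and ASY1) to 7346 bp (QQS and AT3G30730), and no divergent pair is closer than 2016 bp.

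Of the relative pairs, 3 share coding sequence longer than the 50 bp reads, which bears on how far their counts are separate. The longest stretches common to both genes of each pair, from the RefSeq TAIR10.1 genome and on the plus strand, are shown because a read that falls inside one could come from either gene. They lie at chr3:556344-556433 in AT3G02610 and chr3:560623-560712 in AT3G02620, at chr5:8663827-8663898 in CYP71B11 and chr5:8669499-8669570 in CYP71B12, and at chr5:16691848-16692036 in AT5G41740 and chr5:16697116-16697304 in AT5G41750, all in coding exons.
AT3G02610 and AT3G02620, 90 bases: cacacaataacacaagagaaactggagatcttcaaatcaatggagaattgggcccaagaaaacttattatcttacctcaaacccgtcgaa
CYP71B11 and CYP71B12, 72 bases: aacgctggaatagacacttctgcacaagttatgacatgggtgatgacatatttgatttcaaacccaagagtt
AT5G41740 and AT5G41750, 189 bases: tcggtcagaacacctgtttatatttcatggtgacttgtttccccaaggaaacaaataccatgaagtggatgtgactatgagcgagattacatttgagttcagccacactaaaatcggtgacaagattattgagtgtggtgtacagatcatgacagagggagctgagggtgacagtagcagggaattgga
How the authors' counting treated reads with several matches is not given in the sources used here, so the counts of these 3 pairs are uncertain to that extent. In the other 8 relative pairs the longest common exonic stretch was at most 40 bases, and in unrelated pairs it was 9 to 14 bases. In 40 of the 51 members every 50-base stretch of the exons occurs once in the genome, and the lowest share was 86.7%, in AT5G41740.

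In the 250 bases before the annotated start, relatives and unrelated pairs had common stretches of similar length. The longest was 7 to 18 bases in relatives and 7 to 12 in unrelated pairs, with a median of 9 in both. In close pairs on the same strand the window of 1 member reaches into the other gene. This is so for 4CLL2 (63 bp from AT1G20490), PIPK10 (107 bp from AT4G01200), AT3G09160 (158 bp from AT3G09162) and MYBL2 (192 bp from LPR2). The pair with the longest one, AT3G02610 and AT3G02620, is shown from RefSeq TAIR10.1, plus strand, at chr3:555376-555625 and chr3:559932-560181, with the common runs of that length, of which there are 2, in capitals.
AT3G02610: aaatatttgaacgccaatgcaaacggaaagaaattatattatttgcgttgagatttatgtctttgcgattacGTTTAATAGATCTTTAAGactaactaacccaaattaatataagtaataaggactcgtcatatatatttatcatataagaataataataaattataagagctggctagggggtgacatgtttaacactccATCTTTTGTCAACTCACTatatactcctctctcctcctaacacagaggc
AT3G02620: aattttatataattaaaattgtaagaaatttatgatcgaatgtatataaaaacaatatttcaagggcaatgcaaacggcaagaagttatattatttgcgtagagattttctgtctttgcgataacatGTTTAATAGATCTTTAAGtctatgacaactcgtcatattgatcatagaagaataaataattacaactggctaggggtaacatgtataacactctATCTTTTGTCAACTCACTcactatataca

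**Figure D2:**
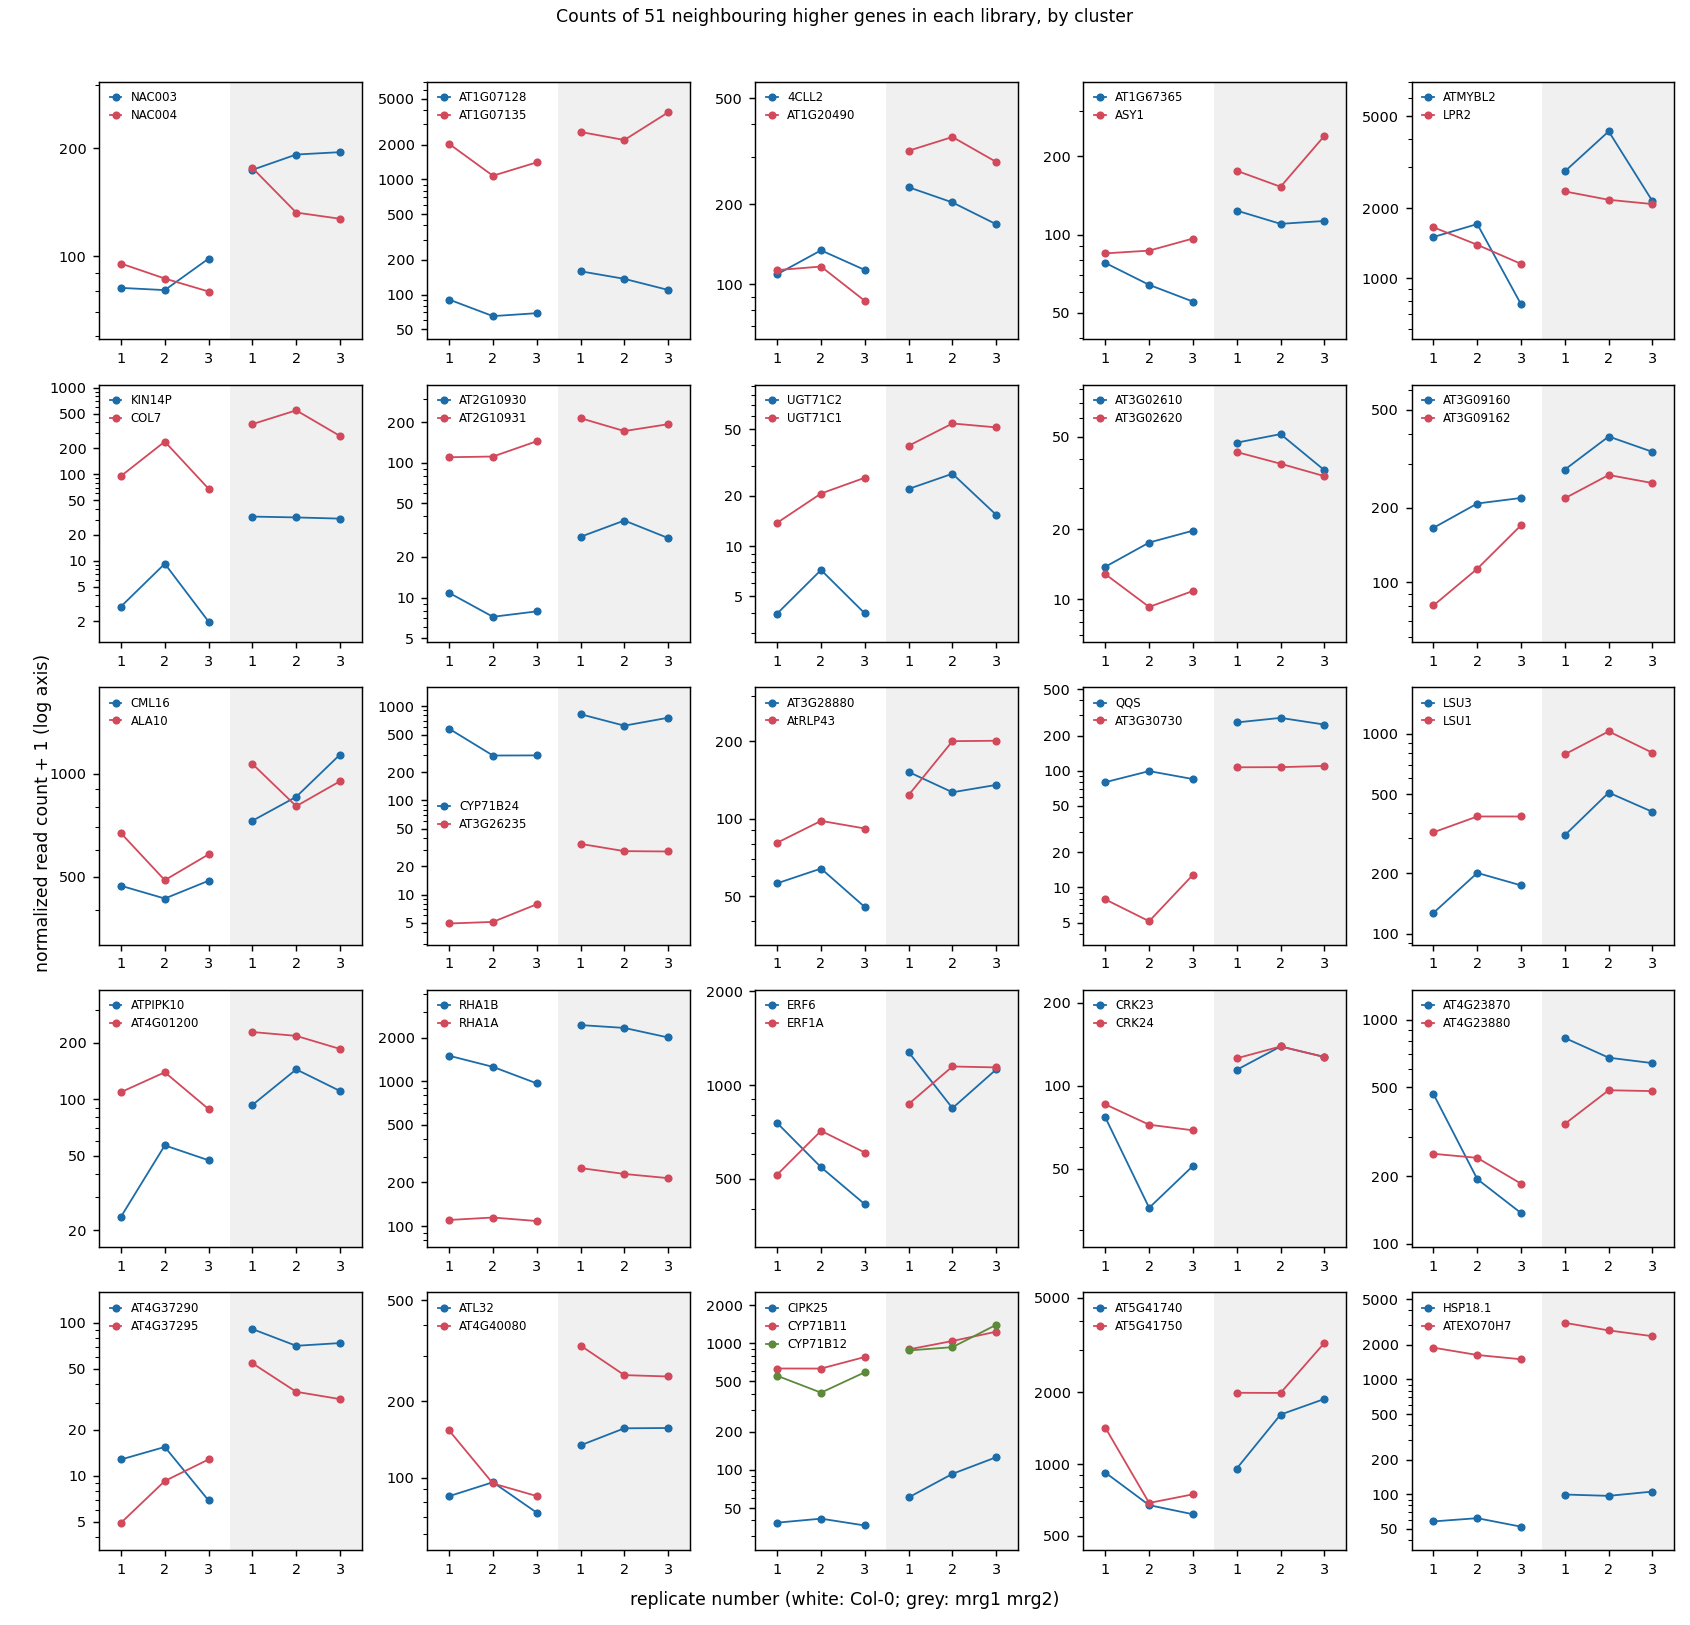
Normalized read count plus 1 (log axis) of each member in each of the 6 libraries, 1 panel a cluster; Col-0 replicates stand on white and mrg1 mrg2 replicates on grey, and lines only join the libraries of a genotype. In every panel the mutant points of a gene lie above its Col-0 points, while the pattern among replicates is alike in some pairs (LSU3 and LSU1) and opposite in others (ERF6 and ERF1A).

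Among the relatives, transcription factors gave 2 pairs whose members did not vary alike. NAC003 and NAC004 are neighbouring genes of the NAC family of plant transcription factors, with proteins 62.3% identical. NAC003 (AT1G02220) stood at 80.6, 79.5 and 97.5 counts in Col-0 and at 173, 191 and 194 in the mutant (means 85.9 ± 10.1 and 186 ± 11.3). NAC004 (AT1G02230) had 94.4, 85.7 and 78.8 counts in Col-0 and 175, 131 and 126 in mrg1 mrg2, with means of 86.3 ± 7.84 and 144 ± 26.9. In both genotypes replicate 1 was the highest library of NAC004 and not of NAC003, whose highest was replicate 3. The replicates of both genes in Col-0, and of NAC003 in the mutant, lay close together. Whether their order exceeds counting noise was not tested. For NAC003 and NAC004, the authors' deposited table lists log2 changes of 1.11 and 0.74 (adjusted p 2.58e-06 and 0.0443). ERF6 and ERF1A encode ethylene response factors, which bind the GCC-box, and their starts face each other across 5041 bp. ERF6 (AT4G17490) stood at 753, 543 and 413 counts in Col-0 and at 1274, 842 and 1122 in the mutant (means 569.6 ± 172 and 1079 ± 219). ERF1A (AT4G17500) had 514, 711 and 605 counts in Col-0 and 868, 1146 and 1138 in mrg1 mrg2, with means of 610.4 ± 98.6 and 1051 ± 158. Replicate 1 was the highest library of ERF6 and the lowest of ERF1A in both genotypes. For ERF6 and ERF1A, the authors' deposited table lists log2 changes of 0.92 and 0.78 (adjusted p 0.0172 and 0.00202).

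Genes of defence receptors and ubiquitin ligases formed 3 relative pairs. AT5G41740 and AT5G41750 belong to the TIR-NBS-LRR class of intracellular immune receptors, and their proteins are 78.7% identical. AT5G41740 stood at 919.5, 671 and 614 counts in Col-0 and at 957, 1612 and 1875 in the mutant (means 735 ± 162 and 1482 ± 473). AT5G41750 had 1420.1, 685 and 745 counts in Col-0 and 1991, 1989 and 3226 in mrg1 mrg2, with means of 950.3 ± 408 and 2402 ± 714. The gap between genotypes was narrow in AT5G41740, where mutant replicate 1 stood just above Col-0 replicate 1. For AT5G41740 and AT5G41750, the authors' deposited table lists log2 changes of 1.01 and 1.34 (adjusted p 0.0117 and 0.00221). CRK23 and CRK24 encode cysteine-rich receptor-like kinases, lie 127 bp apart with their ends facing, and are 56.6% identical. CRK23 (AT4G23310) stood at 75.7, 35.1 and 50.2 counts in Col-0 and at 113, 138 and 126 in the mutant (means 53.7 ± 20.5 and 126 ± 12.3). CRK24 (AT4G23320) had 84.6, 71.2 and 67.9 counts in Col-0 and 125, 138 and 126 in mrg1 mrg2, with means of 74.6 ± 8.81 and 129.5 ± 7.18. Col-0 replicate 1 was the highest Col-0 library of both, and replicate 2 the highest mutant library. For CRK23 and CRK24, the authors' deposited table lists log2 changes of 1.23 and 0.80 (adjusted p 0.00525 and 0.00847). RHA1B and RHA1A encode RING-H2 finger proteins, a class of ubiquitin ligases, with 82.8% identity. RHA1B (AT4G11360) stood at 1501, 1257 and 967 counts in Col-0 and at 2445, 2337 and 2008 in the mutant (means 1242 ± 267 and 2263 ± 228). RHA1A (AT4G11370) had 109, 114 and 107 counts in Col-0 and 250.5, 228 and 213 in mrg1 mrg2, with means of 110.0 ± 3.21 and 231 ± 18.7. RHA1B was the more abundant of them per kilobase of exon, at 1231 against 115 normalized counts per kb in Col-0. For RHA1B and RHA1A, the authors' deposited table lists log2 changes of 0.87 and 1.07 (adjusted p 0.000635 and 2.86e-07).

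Metabolic enzymes formed 4 relative pairs, counting CYP71B11 and CYP71B12 of the cluster of 3. UGT71C2 and UGT71C1 are UDP-dependent glycosyltransferases, which attach sugars to small molecules, and are 79.9% identical. UGT71C2 (AT2G29740) stood at 2.95, 6.19 and 2.95 counts in Col-0 and at 21.0, 26.1 and 14.4 in the mutant (means 4.03 ± 1.87 and 20.5 ± 5.87). UGT71C1 (AT2G29750) had 12.8, 19.6 and 24.6 counts in Col-0 and 38.8, 53.1 and 50.2 in mrg1 mrg2, with means of 19.0 ± 5.94 and 47.4 ± 7.57. Both were low in Col-0, and mutant replicate 2 was the highest library of both. For UGT71C2 and UGT71C1, the authors' deposited table lists log2 changes of 2.35 and 1.32 (adjusted p 0.0178 and 0.0262). 4CLL2 and AT1G20490 belong to the AMP-dependent synthetases and ligases, enzymes that activate carboxylic acids, and lie 63 bp apart with 54.7% identity. 4CLL2 (AT1G20480) stood at 108, 133 and 112 counts in Col-0 and at 231, 202 and 167 in the mutant (means 118 ± 13.4 and 199.9 ± 31.8). AT1G20490 had 112, 116 and 85.7 counts in Col-0 and 316, 357 and 287 in mrg1 mrg2, with means of 104 ± 16.4 and 320.1 ± 34.9. Per kb of exon, 4CLL2 had the higher mean level in Col-0, at 61.5 against 47.2 normalized counts per kb, and AT1G20490 in the mutant, at 145 against 104. For 4CLL2 and AT1G20490, the authors' deposited table lists log2 changes of 0.76 and 1.62 (adjusted p 0.0135 and 2.68e-13). AT3G02610 and AT3G02620, annotated in the stearoyl-acyl-carrier-protein desaturase family, whose enzymes place double bonds in fatty acids, have proteins that are 93.3% identical. AT3G02610 stood at 12.8, 16.5 and 18.7 counts in Col-0 and at 46.1, 50.3 and 34.9 in the mutant (means 16.0 ± 2.99 and 43.7 ± 7.97). AT3G02620 had 11.8, 8.26 and 9.85 counts in Col-0 and 41.9, 37.2 and 32.8 in mrg1 mrg2, with means of 9.97 ± 1.77 and 37.3 ± 4.55. In Col-0 the replicates ran in different orders in the pair, at levels of few reads. For AT3G02610 and AT3G02620, the authors' deposited table lists log2 changes of 1.45 and 1.90 (adjusted p 0.0101 and 0.00108).

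The cluster of 3 genes on chromosome 5 joins a protein kinase to a pair of cytochrome P450 genes. CIPK25 encodes a kinase regulated by calcineurin B-like calcium sensors, and its start faces that of CYP71B11 across 2617 bp. CYP71B11 and CYP71B12 are cytochromes P450, which oxidize small molecules, and are 90.9% identical. CIPK25 (AT5G25110) stood at 37.4, 40.3 and 35.4 counts in Col-0 and at 59.7, 92.2 and 125 in the mutant (means 37.7 ± 2.42 and 92.3 ± 32.7). CYP71B11 (AT5G25120) had 631, 631 and 779 counts in Col-0 and 894, 1042 and 1234 in mrg1 mrg2, with means of 680.3 ± 85.3 and 1056 ± 170.3. CYP71B12 (AT5G25130) stood at 553, 407 and 589.7 counts in Col-0 and at 877, 931 and 1399.6 in the mutant (means 516 ± 96.8 and 1069 ± 287). In the mutant, replicate 1 was the lowest and replicate 3 the highest library of all 3 genes. In Col-0 replicate 3 was the highest for the P450 genes, while the CIPK25 libraries lay close together, at 36 to 39 raw reads. For CIPK25, CYP71B11 and CYP71B12, the authors' deposited table lists log2 changes of 1.29, 0.63 and 1.05 (adjusted p 0.00989, 0.0124 and 0.000935).

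The remaining relatives are short proteins. LSU3 and LSU1 belong to the response-to-low-sulphur family, whose transcripts are known to rise under sulphur limitation, and are 77.7% identical. LSU3 (AT3G49570) had 126, 200.3 and 173 counts in Col-0 and 310.2, 507 and 406 in mrg1 mrg2, with means of 166 ± 37.7 and 408 ± 98.6. LSU1 (AT3G49580) stood at 321, 385 and 385 counts in Col-0 and at 790.2, 1029.7 and 804 in the mutant (means 364 ± 37.2 and 875 ± 134). Replicate 1 was the lowest library of both genes in both genotypes and replicate 2 the highest, except that replicates 2 and 3 of LSU1 were nearly tied in Col-0. For LSU3 and LSU1, the authors' deposited table lists log2 changes of 1.29 and 1.27 (adjusted p 8.38e-05 and 4.6e-11). Their log2 changes, computed from the normalized counts plus 1, differed by 0.03, the smallest difference of the 26 pairs. AT4G37290 and AT4G37295 encode proteins of 84 and 86 residues that have no name in the deposited annotation. Over 75 aligned residues, 89.3% of the shorter protein, they are 32% identical, close to the limit used for relatives. AT4G37290 had 11.8, 14.5 and 5.91 counts in Col-0 and 90.1, 69.8 and 72.8 in mrg1 mrg2, with means of 10.7 ± 4.37 and 77.6 ± 11. AT4G37295 stood at 3.93, 8.26 and 11.8 counts in Col-0 and at 53.4, 34.4 and 30.8 in the mutant (means 8.00 ± 3.95 and 39.6 ± 12.2). Both were low in every Col-0 library, and mutant replicate 1 was the highest library of both. For AT4G37290 and AT4G37295, the authors' deposited table lists log2 changes of 2.86 and 2.30 (adjusted p 7.4e-10 and 0.00133). The MRG1 gene (AT4G37280, chromosome 4, 17546577 to 17549559 in TAIR10.1) lies 48 bp from AT4G37290 and 3751 bp from AT4G37295, and an effect of the mrg1 allele on its neighbours and an effect of losing the proteins cannot be told apart in these libraries.

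Unrelated neighbours with facing starts were 3 pairs, including CIPK25 with CYP71B11 above. KIN14P, a kinesin motor gene, and COL7, a B-box gene of the CONSTANS-like family, are 2100 bp apart. KIN14P (AT1G73860) had 1.97, 8.26 and 0.985 counts in Col-0 and 31.4, 30.7 and 29.7 in mrg1 mrg2, with means of 3.74 ± 3.95 and 30.6 ± 0.856. COL7 (AT1G73870) stood at 94.4, 237 and 66.9 counts in Col-0 and at 378, 546 and 276 in the mutant (means 133 ± 91.5 and 400.2 ± 137). Col-0 replicate 2 was the highest Col-0 library of both, whereas in the mutant KIN14P was nearly level and COL7 was not. For KIN14P and COL7, the authors' deposited table lists log2 changes of 3.05 and 1.59 (adjusted p 0.000764 and 0.0208). CYP71B24, another cytochrome P450, and AT3G26235, an uncharacterized gene, are 2016 bp apart. CYP71B24 (AT3G26230) had 575, 298 and 299 counts in Col-0 and 821, 620.0 and 753 in mrg1 mrg2, with means of 391 ± 159.6 and 731 ± 102. AT3G26235 stood at 3.93, 4.13 and 6.89 counts in Col-0 and at 33.5, 27.9 and 27.7 in the mutant (means 4.99 ± 1.65 and 29.7 ± 3.31). Col-0 replicate 1 was the highest for CYP71B24. For AT3G26235, Col-0 replicates 1 and 2 were tied at 4 raw reads, and replicate 3 had 7. For CYP71B24 and AT3G26235, the authors' deposited table lists log2 changes of 0.90 and 2.57 (adjusted p 0.0478 and 0.000368).

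Unrelated neighbours on the same strand were 5 pairs. MYBL2 (ATMYBL2 in the table), a MYB-like repressor of anthocyanin synthesis, lies 192 bp from LPR2, a multicopper oxidase of the phosphate-starvation response of roots. MYBL2 (AT1G71030) had 1503, 1709 and 769 counts in Col-0 and 2885, 4293 and 2144 in mrg1 mrg2, with means of 1327 ± 494 and 3107 ± 1091. LPR2 (AT1G71040) stood at 1655, 1391 and 1149.9 counts in Col-0 and at 2363, 2175 and 2085 in the mutant (means 1399 ± 253 and 2208 ± 142). Replicate 3 was the lowest library of both in both genotypes, and MYBL2 spread more widely. For MYBL2 and LPR2, the authors' deposited table lists log2 changes of 1.23 and 0.66 (adjusted p 0.0132 and 0.00447). AT3G09160 encodes an RNA-binding protein and lies 158 bp from the uncharacterized AT3G09162. AT3G09160 had 165, 208 and 219 counts in Col-0 and 285, 388 and 336 in mrg1 mrg2, with means of 197 ± 28.2 and 337 ± 51.6. AT3G09162 stood at 79.7, 113 and 169 counts in Col-0 and at 218, 271 and 251 in the mutant (means 121 ± 45.4 and 247 ± 26.8). The replicates had the same order in both genes, with replicate 3 highest in Col-0 and replicate 2 in the mutant. For AT3G09160 and AT3G09162, the authors' deposited table lists log2 changes of 0.77 and 1.03 (adjusted p 0.00528 and 0.0158).

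PIPK10 (ATPIPK10 in the table), a phosphatidylinositol phosphate kinase, lies 107 bp from AT4G01200, which encodes a calcium-dependent lipid-binding protein. PIPK10 (AT4G01190) had 22.6, 55.7 and 46.3 counts in Col-0 and 92.2, 143 and 109.7 in mrg1 mrg2, with means of 41.5 ± 17.1 and 115 ± 26. AT4G01200 stood at 108, 138 and 87.6 counts in Col-0 and at 227, 217 and 185 in the mutant (means 111 ± 25.5 and 209.6 ± 22.3). Col-0 replicate 2 was the highest Col-0 library of both genes. For PIPK10 and AT4G01200, the authors' deposited table lists log2 changes of 1.47 and 0.91 (adjusted p 0.00461 and 0.00467). ATL32, a RING-type ubiquitin ligase gene, and AT4G40080, of the ENTH/ANTH/VHS family linked to clathrin-coated vesicles, are 1539 bp apart. ATL32 (AT4G40070) had 83.6, 95 and 71.9 counts in Col-0 and 133, 155 and 156 in mrg1 mrg2, with means of 83.5 ± 11.6 and 148 ± 13. AT4G40080 stood at 152, 93.9 and 83.7 counts in Col-0 and at 330.1, 252 and 249 in the mutant (means 110.0 ± 37.1 and 277 ± 45.9). Replicate 1 was the highest library of AT4G40080 in both genotypes and of ATL32 in neither. For ATL32 and AT4G40080, the authors' deposited table lists log2 changes of 0.83 and 1.33 (adjusted p 0.00572 and 0.000195). AT2G10930 and AT2G10931, both uncharacterized, had means of 7.64 and 121 counts in Col-0 and 30.1 and 193 in the mutant. For AT2G10930 and AT2G10931, the authors' deposited table lists log2 changes of 1.98 and 0.67 (adjusted p 0.00459 and 0.0406).

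The other 5 unrelated pairs were convergent. CML16, a calmodulin-like calcium sensor, and ALA10, a phospholipid flippase of the P4-ATPase family, end 776 bp apart. CML16 (AT3G25600) had 469, 430.5 and 485 counts in Col-0 and 727, 855 and 1136 in mrg1 mrg2, with means of 462 ± 28.2 and 906 ± 209. ALA10 (AT3G25610) stood at 669, 487 and 579.9 counts in Col-0 and at 1067, 803 and 949 in the mutant (means 579 ± 90.8 and 939.6 ± 132). Replicate 2 was the lowest library of ALA10 in both genotypes, and that of CML16 in Col-0 but not in the mutant. For CML16 and ALA10, the authors' deposited table lists log2 changes of 0.97 and 0.70 (adjusted p 9.72e-05 and 0.00677). AT3G28880, annotated as a phosphatase 6 regulatory ankyrin repeat protein, ends 81 bp from RLP43 (AtRLP43 in the table), a receptor-like protein gene. AT3G28880 had 55.1, 63.0 and 44.3 counts in Col-0 and 151, 126 and 134 in mrg1 mrg2, with means of 54.1 ± 9.37 and 137 ± 12.8. RLP43 (AT3G28890) stood at 79.7, 97.0 and 90.6 counts in Col-0 and at 123, 199 and 199.9 in the mutant (means 89.1 ± 8.78 and 174 ± 44.4). Mutant replicate 1 was the highest for AT3G28880 and the lowest for RLP43. For AT3G28880 and RLP43, the authors' deposited table lists log2 changes of 1.34 and 0.97 (adjusted p 5.56e-06 and 0.0109).

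QQS, an orphan gene known for its effect on starch and protein content, lies 7346 bp from AT3G30730, which is uncharacterized. QQS (AT3G30720) had 78.7, 98.1 and 83.7 counts in Col-0 and 258, 282 and 247 in mrg1 mrg2, with means of 86.8 ± 10.1 and 262 ± 17.9. AT3G30730 stood at 6.88, 4.13 and 11.8 counts in Col-0 and at 106, 106 and 109 in the mutant (means 7.61 ± 3.89 and 107 ± 1.56). The mutant libraries of both were tightly grouped, and AT3G30730 was at few reads in Col-0. For QQS and AT3G30730, the authors' deposited table lists log2 changes of 1.60 and 3.80 (adjusted p 8.01e-15 and 2.93e-18). Their log2 changes, computed from the normalized counts plus 1, differed by 2.16, the largest difference of the 26 pairs. AT4G23870 and AT4G23880 are uncharacterized genes that end 521 bp apart. AT4G23870 had 464, 193 and 136 counts in Col-0 and 828, 676 and 639 in mrg1 mrg2, with means of 264 ± 175 and 714 ± 100.2. AT4G23880 stood at 251, 241 and 184 counts in Col-0 and at 342, 483 and 479 in the mutant (means 225 ± 35.9 and 435 ± 80.5). Col-0 replicate 1 was the highest Col-0 library of both, while mutant replicate 1 was the highest mutant library of AT4G23870 and the lowest of AT4G23880. For AT4G23870 and AT4G23880, the authors' deposited table lists log2 changes of 1.43 and 0.95 (adjusted p 0.0166 and 0.000822).

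HSP18.1 (AT5G59720), a small heat shock protein gene named HSP18.2 in RefSeq, ends 574 bp from EXO70H7 (ATEXO70H7 in the table), a subunit of the exocyst complex that tethers secretory vesicles. HSP18.1 (AT5G59720) had 57.0, 60.9 and 51.2 counts in Col-0 and 98.5, 95.9 and 105 in mrg1 mrg2, with means of 56.4 ± 4.89 and 99.7 ± 4.46. EXO70H7 (AT5G59730) stood at 1892, 1634 and 1499 counts in Col-0 and at 3116, 2676 and 2383 in the mutant (means 1675 ± 199.6 and 2725 ± 369). Replicate 1 was the highest library of EXO70H7 in both genotypes and of HSP18.1 in neither. For HSP18.1 and EXO70H7, the authors' deposited table lists log2 changes of 0.82 and 0.70 (adjusted p 0.0151 and 0.000864).

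A long noncoding RNA was a member of 2 pairs. AT1G07128 lies on the same strand as AT1G07135, a glycine-rich protein gene, and AT1G07130 (STN1) comes between them in position order. The deposited description calls AT1G07128 a potential natural antisense gene whose locus overlaps AT1G07130, which has no values here. AT1G07128 had 89.5, 64.0 and 67.9 counts in Col-0 and 158, 136 and 109 in mrg1 mrg2, with means of 73.8 ± 13.7 and 134 ± 24.8. AT1G07135 stood at 2031, 1074 and 1403 counts in Col-0 and at 2577, 2194 and 3811 in the mutant (means 1502 ± 486 and 2861 ± 845). Mutant replicate 3 was the lowest library of AT1G07128 and the highest of AT1G07135. For AT1G07128 and AT1G07135, the authors' deposited table lists log2 changes of 0.86 and 0.93 (adjusted p 0.0289 and 0.0382). AT1G67365 overlaps ASY1, which encodes a protein of the meiotic chromosome axis, by 214 bp on opposite strands. AT1G67365 had 76.7, 63.0 and 54.1 counts in Col-0 and 123, 109 and 112 in mrg1 mrg2, with means of 64.6 ± 11.4 and 114 ± 7.23. ASY1 (AT1G67370) stood at 83.6, 85.7 and 95.5 counts in Col-0 and at 175, 152 and 239 in the mutant (means 88.3 ± 6.36 and 189 ± 45.1). Col-0 replicate 1 was the highest for AT1G67365 and the lowest for ASY1. For AT1G67365 and ASY1, the authors' deposited table lists log2 changes of 0.82 and 1.09 (adjusted p 0.02 and 0.000741). The libraries were stranded, per the labels' protocols, but whether counting used the strand is not given in the sources used here. Reads in the overlap of AT1G67365 and ASY1, or of AT1G07128 and AT1G07130, could thus belong to either gene.

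Variation within a genotype is the measure that the choice of members did not fix. For each gene and library, the deviation of log2(normalized count + 1) from the mean of its genotype was taken, and a pair was said to vary alike in a library where both members deviated in the same direction. This was so in 85 of 156 comparisons (54.5%) over 26 pairs and 6 libraries, beside 51.1% over 139102 other pairs of nuclear higher genes. Relatives varied alike in 40 of 66 (60.6%), unrelated pairs in 40 of 78 (51.3%), and pairs with a noncoding member in 5 of 12 (41.7%). The 6 values of a pair are not independent, since the deviations of a genotype add up to 0. Same-numbered libraries of both genotypes also deviated together (r = 0.40, 0.55 and 0.32 across genes). Likeness in Col-0 and likeness in the mutant are thus not separate observations. Whether a shared experiment accounts for this was not tested. No test was made of these shares. Without Col-0 replicate 1 the share over the 26 pairs was 56.9%.

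**Figure D3:**
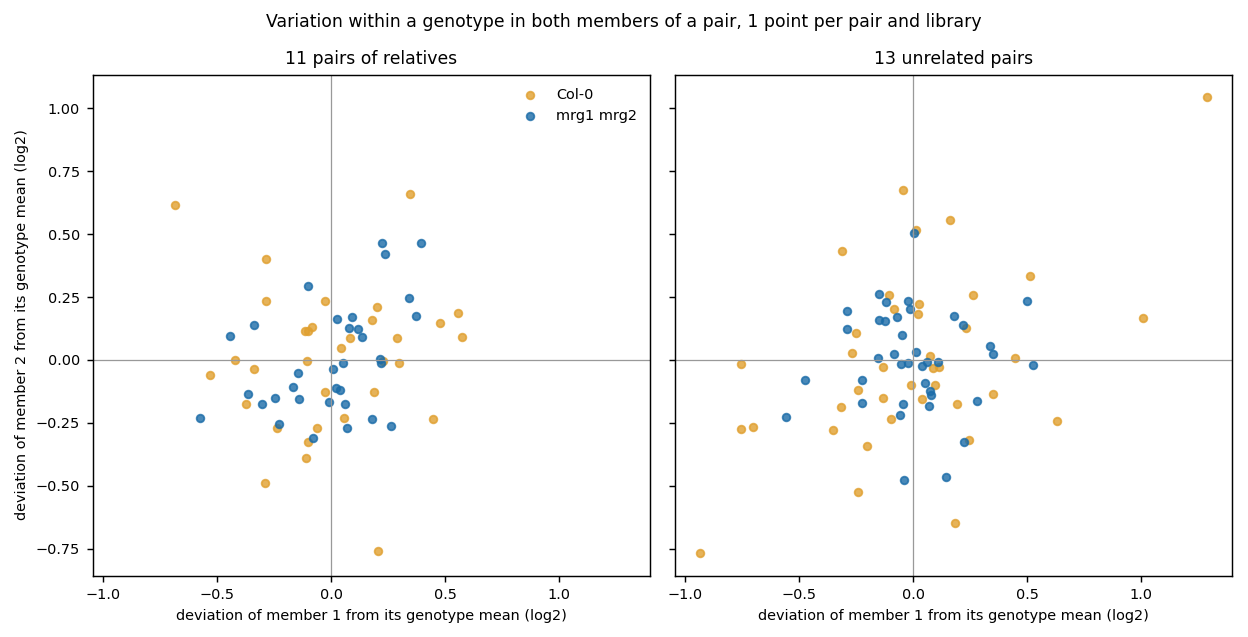
Deviation of each pair's members from their genotype mean, in log2 units, with the first member on the x axis and the second on the y axis and 1 point per pair and library, for relatives (left) and unrelated pairs (right). Points at the upper right and the lower left are libraries in which both members vary alike: 40 of 66 for relatives and 40 of 78 for unrelated pairs.

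Single pairs ranged widely. None varied alike in all 6 libraries, beside 4.11% of the other pairs of nuclear higher genes. In 5 libraries 7 pairs (26.9%) did, beside 17.0% of the other pairs in 5 or 6: KIN14P and COL7, AT3G09160 and AT3G09162, CML16 and ALA10, LSU3 and LSU1, CRK23 and CRK24, CYP71B11 and CYP71B12, and AT5G41740 and AT5G41750. In 1 library only, 4 pairs did: NAC003 and NAC004, AT2G10930 and AT2G10931, AT3G28880 and RLP43, and ERF6 and ERF1A. For this low end the share over the other pairs was not computed. Both ends of this range thus held relatives as well as unrelated pairs. The measure takes only the direction of a deviation, however small: in the mutant those of KIN14P were 0.0367, 0.00444 and -0.0412 (log2). Because the pairs at both ends were named from the measure itself, the counts describe them and give no support to a difference between pairs. CYP71B11 with CYP71B12 and AT5G41740 with AT5G41750 are among the pairs that share coding stretches longer than a read, and the part of shared reads in this was not tested.

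The order of the libraries was compared in the same way, with no test. The same Col-0 library was the highest for both members in 11 of 26 pairs (42.3%), beside 36.7% of the other pairs, with 5 of 11 relative pairs (45.5%) and 5 of 13 unrelated pairs (38.5%). In the mutant this held for 10 pairs (38.5%), beside 33.6%. The mutant count came from 7 of 11 relative pairs (63.6%) and 3 of 13 unrelated pairs (23.1%). For the lowest Col-0 library the split ran the other way, with 4 relative pairs (36.4%) and 7 unrelated pairs (53.8%), and for the lowest mutant library it was 6 (54.5%) and 4 (30.8%). The order of all 3 Col-0 libraries was the same in 6 pairs (23.1%, beside 18.7%), and that of the mutant libraries also in 6 (23.1%, beside 17.3%). Among relatives 2 pairs (18.2%) shared the Col-0 order and 4 (36.4%) the mutant order; among unrelated pairs 3 (23.1%) and 2 (15.4%) did. LSU3 and LSU1, AT3G09160 and AT3G09162, and CYP71B11 and CYP71B12 had the same order in both genotypes, but in Col-0 this rests on near ties between replicates 2 and 3 of LSU1 and between replicates 1 and 2 of CYP71B11. The experiment with the largest difference between mutant and Col-0 was the same for both members in 11 pairs (42.3%), beside 35.9%. Experiments were taken here from the replicate numbers.

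**Figure D4:**
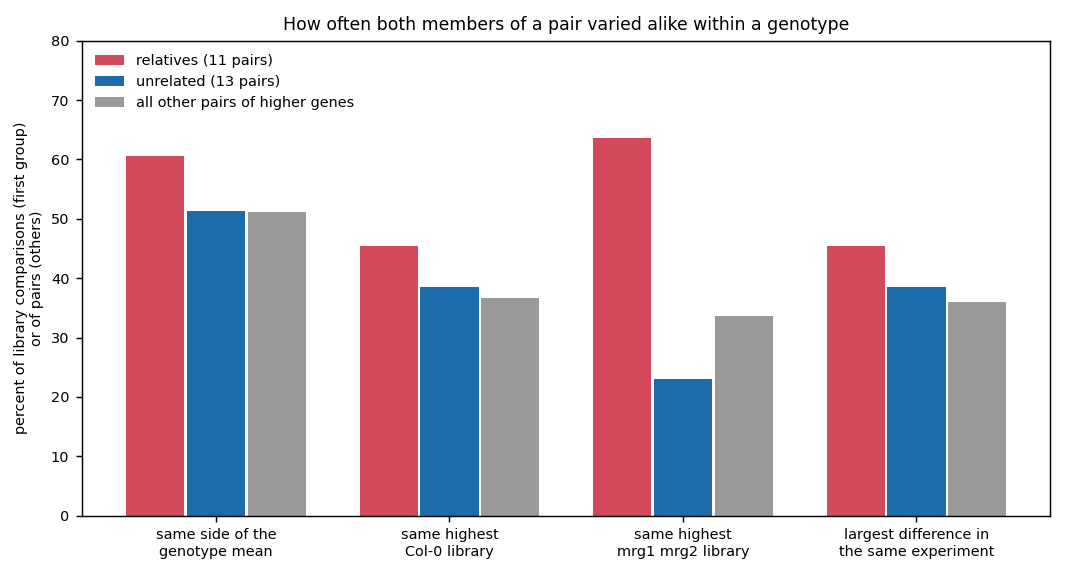
Percent of library comparisons in which both members of a pair deviated in the same direction, and percent of pairs with the same highest Col-0 library, highest mutant library or experiment of largest difference (y axis), for relatives, unrelated pairs and all other pairs of nuclear higher genes. Relatives lie at 60.6% and unrelated pairs at 51.3% in the first measure, beside 51.1% for other pairs, at 45.5% and 38.5% for the highest Col-0 library, beside 36.7%, and at 63.6% and 23.1% for the highest mutant library, beside 33.6%.

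Members of a pair were no closer in size of change than other higher genes. The median difference between the log2 changes of the members, from normalized counts plus 1, was 0.45 over the 26 pairs and 0.45 over all other pairs. Relatives had a median of 0.41 and unrelated pairs one of 0.58. These changes come from the contrast that chose the genes, so the values are a description. Levels differed more: in Col-0 the ratio of the higher to the lower member, in normalized counts per kb of exon, had a median of 1.64 in relatives (1.01 to 10.7) and 3.73 in unrelated pairs (1.03 to 76.2).

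**Figure D5:**
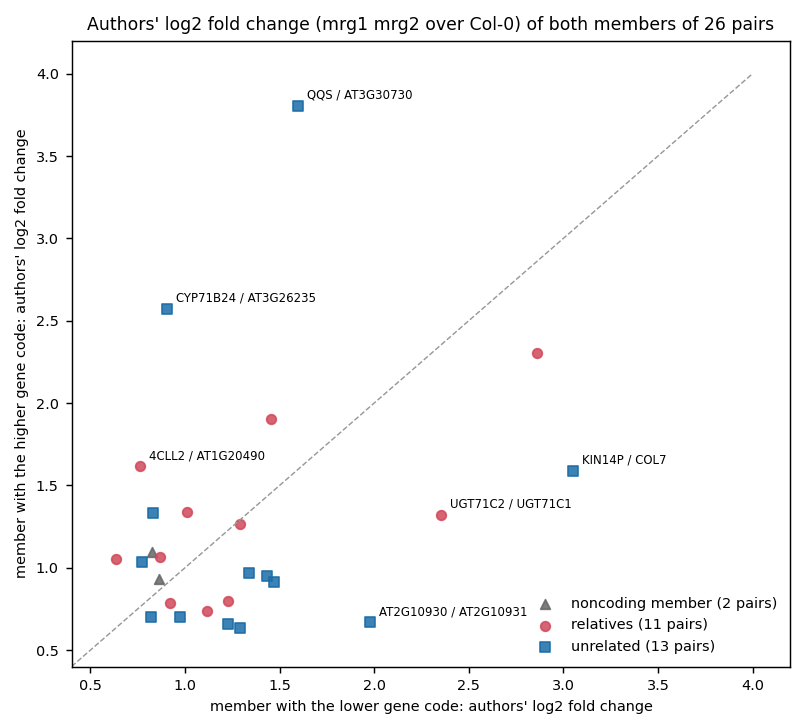
Log2 fold change (mrg1 mrg2 over Col-0) in the authors' deposited table for the member with the lower gene code (x axis) and the higher gene code (y axis) of 26 pairs, with the dashed line marking equal change. LSU3 and LSU1 lie on the line at 1.29 and 1.27, and QQS and AT3G30730, at 1.60 and 3.80, lie farthest from it.

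The 250 bases before the start, which in some close pairs reach into the neighbouring gene, were searched on both strands for 4 motifs in the 49 coding members. TTGAC, the core of the W-box that WRKY factors bind, was found in 28 members (57.1%), in 49.5% of other higher genes and in 44.9% of all 27443 protein-coding genes with such a window. Both members held it in 7 pairs. The G-box CACGTG was found in 4 members (8.16%, beside 6.49% of all), the GCC-box GCCGCC in 2 (4.08%, beside 1.87%) and CCGAC, the core of the cold and drought element, in 1 (2.04%, beside 12.0%). A match describes letters and is no evidence of binding. The windows of AT4G37290 (minus strand, chr4:17550258-17550507) and AT4G37295 (plus strand, chr4:17553060-17553309), the divergent pair beside MRG1, are shown from RefSeq TAIR10.1 with the W-box core in capitals, which reads GTCAA where it lies on the other strand.
AT4G37290: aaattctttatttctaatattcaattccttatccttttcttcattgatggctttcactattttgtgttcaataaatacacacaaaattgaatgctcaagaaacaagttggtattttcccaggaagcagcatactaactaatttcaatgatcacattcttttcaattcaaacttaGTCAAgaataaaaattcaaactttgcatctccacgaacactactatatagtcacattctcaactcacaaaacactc
AT4G37295: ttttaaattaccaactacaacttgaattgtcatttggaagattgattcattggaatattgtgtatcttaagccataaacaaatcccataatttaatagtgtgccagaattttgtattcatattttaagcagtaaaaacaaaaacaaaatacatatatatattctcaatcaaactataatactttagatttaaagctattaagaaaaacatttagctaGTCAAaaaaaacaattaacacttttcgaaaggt

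Some clusters had further relatives that are not listed. Of the 50 protein-coding genes flanking the 25 clusters, 7 were relatives of a member by the same limits: AT1G02210 and NAC005 beside NAC003 and NAC004, AT1G20500 beside AT1G20490, AT3G02630 beside AT3G02620, CYP71B3 beside CYP71B24, CRK22 beside CRK23, and CYP71B13 beside CYP71B12. None of the 50 was in either table, which for direct neighbours follows largely from the rule, and their levels were not analysed here.

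A refit of the listed genes shows how far the members rest on single libraries. With edgeR's quasi-likelihood test and the largest p-value of the deposited tables, 0.00161, as the limit, 33 of 51 members (64.7%) passed, beside 70.6% of all 531 higher genes. Both members passed in 10 of 26 pairs. With replicate number as a block, 40 passed, beside 71.6% of all: CRK23, AT4G23880 and AT5G41750 were lost and 10 were gained, and both members passed in 15 pairs. DESeq2 passed 42, beside 82.9% of all. Without mutant replicate 2, 16 members (31.4%) passed, beside 35.6% of all. Since the tables hold only genes chosen for a difference, this refit describes dependence on libraries and model and is no new test.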

How the data were processed

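RNA from aerial parts was depleted of ribosomal RNA and sequenced from stranded libraries as 50 bp single-end reads, per the labels' protocols. The submitters' processing notes name TAIR10 and DESeq2. How reads were aligned and counted is not given here. The authors deposited raw counts per gene and library, not normalized, for listed genes only. The p-value and adjusted p-value (FDR) in the deposited tables are the authors' own, and so is the log2 fold change (mutant relative to wild type).

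The members and gene lists used here were chosen with earlier results of these data known. Size factors (0.954 to 1.07) were fitted to the authors' log2 fold changes of 350 genes (50 or more counts), leaving a residual SD of 0.000663 (log2). Every member is named; libraries are given singly for relatives, divergent pairs, the cluster of 3 and other pairs with at least 50 normalized counts on average in both members. Gene positions and sequences come from the RefSeq TAIR10.1 annotation and genome, whose gene strand matched the tables for all 51 members. Proteins were translated from its coding sequences and aligned globally (Biopython 1.88, BLOSUM62, gap costs 11 and 1, free end gaps). Refits used edgeR 4.0.16 (quasi-likelihood) and DESeq2 1.42.0 in R 4.3.3 on all 552 listed genes, and were tested on simulated data.

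No library was a repeat of another: between replicates, chi-square per degree of freedom was 12.0 to 29.2, where counting noise alone gives about 1. Across 435 genes, same-numbered libraries of both genotypes deviated together (r = 0.40, 0.55 and 0.32), other pairs less (-0.42 to 0.02); genes are not independent replicates. Replicate numbers were thus treated as pairing the libraries, which come from independent experiments per the labels. Alternatives varied the code distance, identity limit, pseudocount, scaling, block, low-count filter and libraries.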

Additional observations from a re-analysis of the deposited data

How the results depend on the processing

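The number of members depends on the rule. It was 10 with codes at most 5 apart, 58 at most 20, 112 at most 50, 14 where only genes with an authors' deposited table log2 fold change of at least 1 were paired, and 45 by the order of annotated protein-coding genes. Relatives numbered 14 at 25% identity and 9 at 50%. The share of comparisons in which pair members varied alike was 50.8% to 62.3% with 1 library left out. It was 56.4% in raw counts and 50.0% in pairs that are not relatives. An alternative chosen after seeing the data kept 17 pairs that do not overlap and whose exonic 50-base stretches are all unique, and gave 54.9%. The median difference in log2 change within pairs was 0.35 (without Col-0 replicate 2) to 0.57 (without Col-0 replicate 1). In the refit, 33 members passed in edgeR (64.7%, beside 70.6% of all higher genes), 40 with the replicate block (78.4%, beside 71.6%), 42 in DESeq2 (82.4%, beside 82.9%), 41 in DESeq2 with the replicate block (80.4%, beside 74.0%) and 32 with a mean of at least 10 counts (62.7%, beside 69.1%). With 1 library left out, 16 (without mrg1 mrg2 replicate 2, 31.4%, beside 35.6%) to 37 (without Col-0 replicate 1, 72.5%, beside 72.9%) passed; 16 members passed in all 6 such fits and 4 in none. With edgeR's TMM factors 2 passed (3.92%, beside 5.08%), because that scaling centres a table in which nearly all genes are higher and moves the median log2 change of all higher genes from 1.08 to 0.05. Under it the log2 change turned negative in 24 members: -0.29 in AT1G02230, -0.17 in AT1G07128, -0.10 in AT1G07135, -0.27 in AT1G20480, -0.20 in AT1G67365, -0.37 in AT1G71040, -0.37 in AT2G10931, -0.27 in AT3G09160, -0.0226 in AT3G09162, -0.0685 in AT3G25600, -0.33 in AT3G25610, -0.11 in AT3G26230, -0.0764 in AT3G28890, -0.12 in AT4G01200, -0.16 in AT4G11360, -0.0949 in AT4G17490, -0.26 in AT4G17500, -0.24 in AT4G23320, -0.0832 in AT4G23880, -0.21 in AT4G40070, -0.41 in AT5G25120, -0.0191 in AT5G41740, -0.21 in AT5G59720 and -0.33 in AT5G59730. Levels of a few reads in Col-0, as in KIN14P, UGT71C2 and AT3G26235, limit the precision of their replicate order. So do replicates that lie close together, as in NAC003, HSP18.1 and, in Col-0, RHA1A, ASY1 and CIPK25.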
